A study of Mus musculus with 4 samples.

Results

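The autosomal methylome of mouse embryonic fibroblasts (MEFs) was described before any reprogramming factor had been switched on. The cells were the uninduced control of a secondary, inducible MEF system on a 129/SvJ x C57/B6 hybrid background, grown in medium with 10% fetal bovine serum. They carry doxycycline-inducible reprogramming factors, which had not been induced in this culture. The assay was reduced representation bisulfite sequencing (RRBS). In it MspI cuts genomic DNA at CCGG, fragments of 40 to 220 bp are kept, and bisulfite turns unmethylated cytosines into uracil, so that a read shows which cytosines carried a methyl group. The series holds 4 libraries, and 1 of them, the control, was used here. The labels name no sex, passage or number of embryos for the culture.

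Members were all CpGs on the 19 autosomes with at least 10 reads in the control library. They numbered 1247305, or 74.1% of the 1683467 autosomal CpGs listed, out of 1754344 listed in all. The level of a CpG is its methylated reads as a percent of all its reads. A median of 52 reads covered each member (quartiles 28 and 83), and the members held 95% of the 84606824 reads over listed CpGs. With 1 library there is no replicate, so every value below describes this library and no test between conditions was made. The 95% Wilson intervals cover counting error only, since reads without molecular identifiers are not independent molecules. Where counts are summed or levels averaged over several CpGs, a read is counted at each CpG it covers. Counting error is then understated and the intervals are too narrow. At the median depth a CpG with 0 methylated reads may have a level of up to 6.88%, and at 10 reads of up to 27.8%.

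In mammals DNA methylation sits mostly on the cytosine of CpG dinucleotides, where Dnmt3a and Dnmt3b place it and Dnmt1 copies it after replication. Most CpGs of the genome are methylated, while CpG islands, short stretches rich in CpG that often hold gene promoters, are mostly free of it. Known exceptions are islands of imprinted genes, which carry methylation on the copy from 1 parent, and promoters of some germline genes, which are methylated in body cells.

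The range of states is seen in 5 promoters, printed because they show the methylated, the partly methylated and the unmethylated state in sequence of high CpG content. Sequences are RefSeq's (GRCm38.p6), each from 250 bases before to 50 after a start site, written 5′ to 3′ on the gene's strand. Capitals mark the CpGs that had at least 10 reads. Each promoter was placed on the deposited mm9 positions through the spacing of its CpGs alone, so the positions given are mm9 and may be shifted by 1 base, as the files do not say whether they count from 0 or 1.
Hormad1: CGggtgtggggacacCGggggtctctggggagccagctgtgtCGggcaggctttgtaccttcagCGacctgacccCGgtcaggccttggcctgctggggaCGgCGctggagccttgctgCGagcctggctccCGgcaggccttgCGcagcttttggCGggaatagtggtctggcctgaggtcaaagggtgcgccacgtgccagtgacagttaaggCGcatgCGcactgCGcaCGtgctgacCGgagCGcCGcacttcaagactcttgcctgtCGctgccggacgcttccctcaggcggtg
Sycp1: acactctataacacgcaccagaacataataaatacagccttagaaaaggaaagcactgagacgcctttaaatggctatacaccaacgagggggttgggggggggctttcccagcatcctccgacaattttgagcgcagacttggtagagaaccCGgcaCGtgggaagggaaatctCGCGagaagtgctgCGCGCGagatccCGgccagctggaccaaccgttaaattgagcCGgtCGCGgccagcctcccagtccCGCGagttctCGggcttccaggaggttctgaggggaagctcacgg
Plagl1: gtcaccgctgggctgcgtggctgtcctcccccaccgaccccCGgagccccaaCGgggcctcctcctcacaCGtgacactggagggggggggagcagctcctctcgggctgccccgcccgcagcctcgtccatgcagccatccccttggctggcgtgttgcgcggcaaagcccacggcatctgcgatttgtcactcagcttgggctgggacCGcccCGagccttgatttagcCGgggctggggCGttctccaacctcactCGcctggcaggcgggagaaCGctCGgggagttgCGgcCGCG
Igf2r: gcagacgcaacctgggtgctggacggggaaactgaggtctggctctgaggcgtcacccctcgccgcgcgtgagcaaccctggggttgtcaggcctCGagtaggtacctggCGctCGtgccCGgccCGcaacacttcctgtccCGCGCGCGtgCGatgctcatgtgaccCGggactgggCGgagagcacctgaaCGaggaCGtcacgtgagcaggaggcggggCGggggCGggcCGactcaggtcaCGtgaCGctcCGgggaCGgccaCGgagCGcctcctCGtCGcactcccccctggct
Dnmt3a: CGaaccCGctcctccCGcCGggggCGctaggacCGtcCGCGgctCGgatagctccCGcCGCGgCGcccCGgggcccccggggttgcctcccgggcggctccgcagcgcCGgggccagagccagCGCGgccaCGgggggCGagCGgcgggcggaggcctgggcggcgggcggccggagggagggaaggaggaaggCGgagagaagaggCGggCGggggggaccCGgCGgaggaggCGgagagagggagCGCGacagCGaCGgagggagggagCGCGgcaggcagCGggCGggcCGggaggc

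Hormad1, which encodes a protein of meiotic chromosome axes, lay at chr3:95363348-95363647 (+ strand). Its 19 covered CpGs had levels from 61.5% to 100%, with a mean of 87.6%. Sycp1, a component of the synaptonemal complex that joins chromosomes in meiosis, lay at chr3:102739973-102740272 (- strand). Its 14 covered CpGs lay between 85.7% and 100%, with a mean of 94.2%. The covered CpGs of Sycp1 lay from 97 bases before to 16 after the start site, so its upstream part is not described.

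Plagl1, an imprinted gene for a zinc finger protein, lay at chr10:12810387-12810686 (+ strand), and its 13 covered CpGs ranged from 23.5% to 62.2% with a mean of 39.2%. Within this promoter the 3 CpGs farthest upstream had 62.2%, 61.7% and 55.7% of 82, 81 and 79 reads, while the 6 CpGs after the start site had 23.5% to 28%. Igf2r, the imprinted receptor that clears insulin-like growth factor 2, lay at chr17:12962522-12962821 (- strand). Its 25 covered CpGs ranged from 14.5% to 49.1%, with a mean of 33.2%. Dnmt3a, which encodes a methyltransferase, lay at chr12:3806729-3807028 (+ strand). Its 35 covered CpGs ranged from 0% to 10%, with a mean of 0.911%. The ranges of Hormad1 and Plagl1 overlapped by less than a point, and the highest CpG of Dnmt3a was below the lowest of Igf2r.

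**Figure D1:**
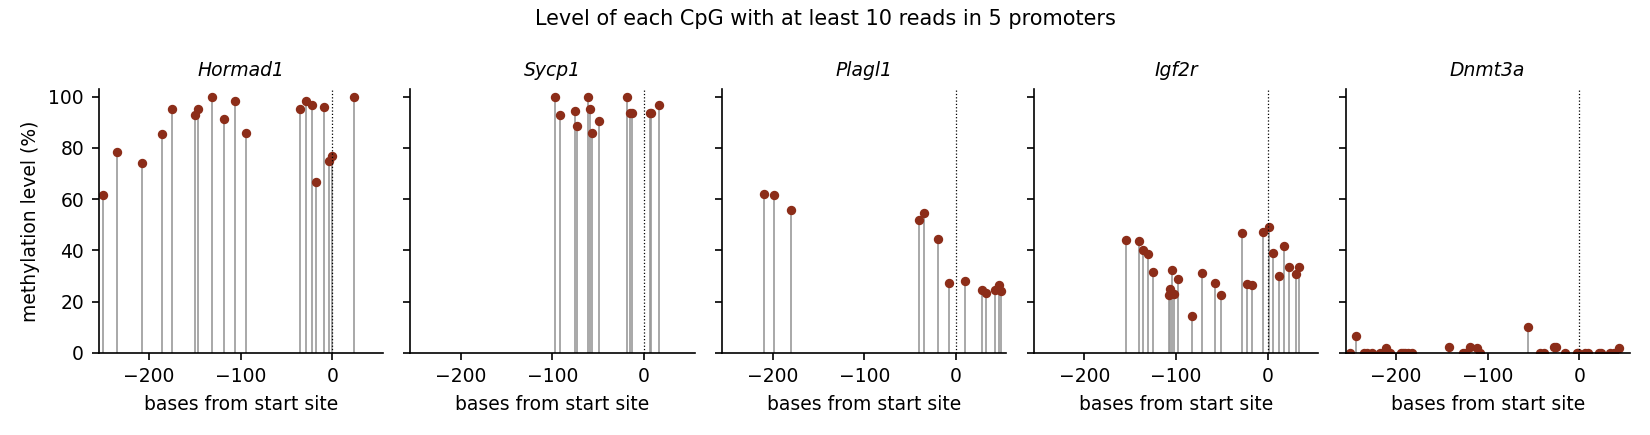
Level of each CpG with at least 10 reads (vertical axis, percent) against its distance in bases from the start site (horizontal axis; dotted line at 0) in the promoters of Hormad1, Sycp1, Plagl1, Igf2r and Dnmt3a. Hormad1 and Sycp1 stand at 61.5% or more throughout, Plagl1 and Igf2r lie between 14.5% and 62.2%, and Dnmt3a stays at or under 10%.

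Over all members the mean level was 45%, with an SD over CpGs of 41.2 points and a median of 48.6%. Pooling all reads gave 43.5%. That mean describes few CpGs: 44.7% of them were under 20%, called unmethylated here, 36.3% were at 80% or over, called methylated, and 19.05% lay between, called partly methylated. No methylated read was seen at 337736 CpGs (27.1%), and no unmethylated read at 36305 (2.91%). The low end was therefore much sharper than the high end, where most CpGs stood at 80% to 95%.

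Partly methylated CpGs numbered 237658. For 108032 of the members (8.66%) the whole Wilson interval lay inside 20% to 80%, so that counting error does not place them outside. Among the 656119 CpGs with at least 50 reads, 17.1% were partly methylated and 10.05% had the whole interval inside. The share depends on its limits, and was 37.3% from 10% to 90% and 10.2% from 30% to 70%.

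Level fell with local CpG density, counted as the number of other listed CpGs within 100 bp on either side. CpGs with at most 4 others, called CpG-poor, numbered 513044 (41.1%), and had a mean level of 71.7% (SD 28.7 points) and a median of 83.3%. Those with 5 to 11, called intermediate, numbered 344928 (27.7%), with a mean of 50.8% (SD 41.4). Those with 12 or more, called CpG-dense, numbered 389333 (31.2%), with a mean of 4.53% (SD 15.0) and a median of 0%. The difference between CpG-poor and CpG-dense means was 67.2 points.

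The 3 classes also differed in shape. Of CpG-poor CpGs 57.2% were methylated, 32.4% partly methylated and 10.4% unmethylated. Intermediate CpGs split into 39.3% unmethylated and 44.0% methylated, with 16.7% between. Of CpG-dense CpGs 94.5% were unmethylated, and 63.1% had no methylated read at all. Among CpG-dense CpGs 13922 (3.58%) were partly methylated and 7527 (1.93%) methylated. The whole Wilson interval lay inside 20% to 80% for 15.3% of CpG-poor and 6.84% of intermediate CpGs, and for 1.59% of CpG-dense ones.

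**Figure D2:**
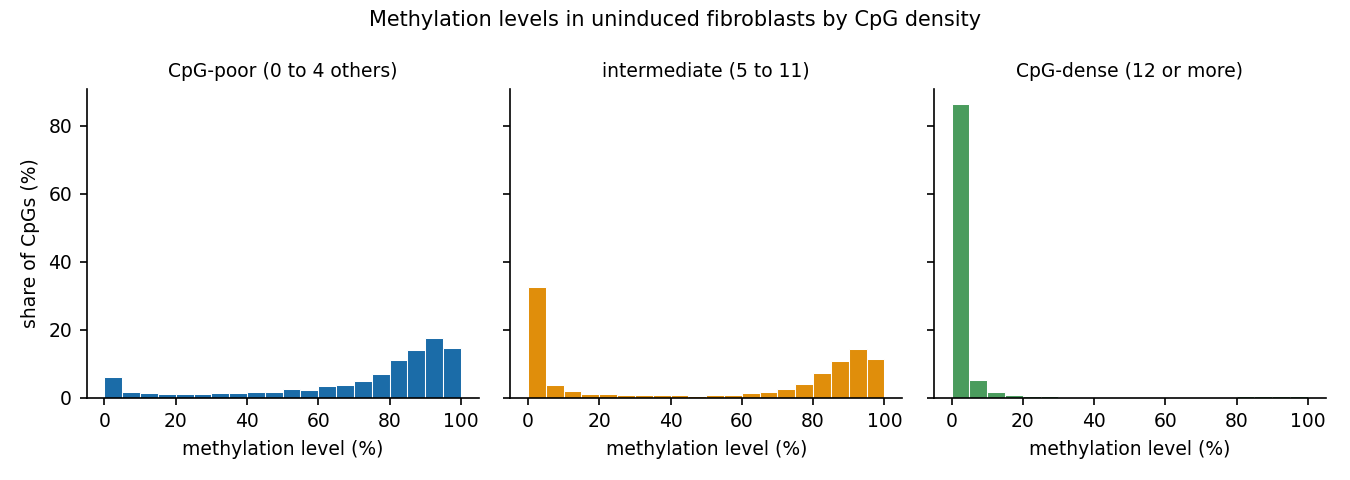
Share of CpGs (vertical axis, percent of the class) in each 5-point bin of methylation level (horizontal axis, percent) for CpG-poor, intermediate and CpG-dense CpGs. CpG-poor CpGs pile up near the methylated end, intermediate CpGs form a peak at each end, and 86.5% of CpG-dense CpGs fall in the lowest bin.

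By exact count the fall in level was steep over a narrow range. CpGs with no other CpG within 100 bp had a mean of 77.7%, and those with 4 others 65.2%. The mean was 62.8% at 6 others, 48.3% at 8, 34.9% at 10, 22.4% at 11 and 15.3% at 12. At 14 others it was 6.36%, at 20 it was 2.55%, and at 26 it was 1.69%, after which it stayed between 1.62% and 2.33% up to 39 others. The 871 CpGs with 40 or more others had a mean of 3.06%. Across all members density and level had a Pearson r of -0.67, given as a description, since CpGs of a fragment share reads and neighbours.

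Part of the intermediate class consisted of the same spacing of CpGs repeated across the genome. A recurring pattern was defined, after the values had been seen, as 6 CpGs with the same 5 gaps, spanning at least 50 bp, at 20 or more autosomal places. There were 690 such patterns. The 2 commonest each occurred at 1339 places on all 19 autosomes, among them the gaps of 7, 7, 5, 4 and 29 bp. For 592 of the 684 patterns that differ from their mirror image, the mirror image also occurred at 20 or more places. Copies of mobile elements are known to be methylated in body cells, but no repeat annotation was used, so the patterns were not assigned to any element.

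Members in recurring patterns numbered 108625 (8.71%), had a mean of 87.4% (SD 9.24 points), and were unmethylated in 0.069% of cases. Their median coverage of 53 reads was close to the 52 of the others in total but not within classes. It was 77 reads against 50 among CpG-poor, 50 against 58 among intermediate and 69 against 52 among CpG-dense CpGs. They made up 27.0% of intermediate CpGs, against 2.11% of CpG-poor and 1.21% of CpG-dense CpGs. Intermediate CpGs outside them had a mean of 37.2%, and those inside 87.6%. The 4728 CpG-dense CpGs inside them had a mean of 84.0%, although their density class had a mean of 4.53%. Without recurring patterns the mean at 6 others was 49% in place of 62.8%, and at 7 others 39.8% in place of 57.9%, so that the fall with density began earlier and was smoother.

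**Figure D3:**
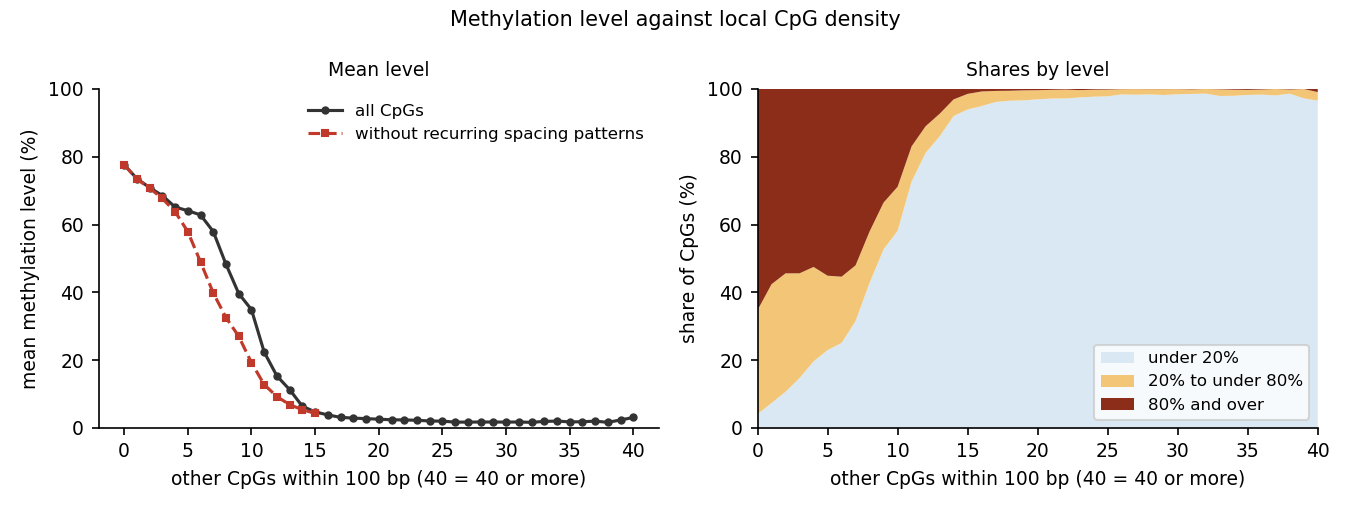
Left, mean methylation level (percent) against the number of other CpGs within 100 bp, for all CpGs (solid) and without those in recurring spacing patterns (dashed, drawn up to 15). Right, shares of CpGs under 20%, from 20% to under 80%, and at 80% or over at each density. The solid curve has a shoulder at 5 to 7 others that the dashed curve lacks.

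The distance to the next listed CpG had a median of 16 bp, 79.3% of members had one within 100 bp, and 11.3% had none within 1000 bp. Level rose with this distance, from a mean of 23.0% at 2 to 5 bp through 30.8% at 6 to 10 bp, 40.7% at 11 to 20 bp and 53.8% at 21 to 50 bp, to 71.9% above 100 and up to 200 bp. Beyond that it ranged from 66.2% (above 200 and up to 500 bp) to 74.4% (over 10000 bp). Within a density class most of this rise was gone. CpG-poor CpGs had a mean of 69.5% at 2 to 5 bp and stayed between 69.2% and 76.7% in every bin. CpG-dense CpGs stayed between 3.45% and 6.82% in every distance bin. Intermediate CpGs ranged from 47.2% to 55.9%, except for 29.5% among the 2212 whose next CpG lay above 200 and up to 500 bp away.

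CpG-poor CpGs differed by how far they lay from a CpG-dense one. Within 200 bp of the nearest CpG-dense CpG, 9041 CpG-poor CpGs had a mean of 12.8%, although their density by listed CpGs put them in the mostly methylated class. Unlisted CpGs are not counted, so some of these may lie in sequence richer in CpG than their class says. In the promoters described below 72.9% of the CpGs of the sequence were listed. The part of this undercount in the low means was not tested. In the bins ending at 500, 1000, 2000 and 5000 bp the mean was 17.9%, 36.6%, 60.9% and 70.7%. Farther than 20000 bp away, 352052 CpG-poor CpGs had a mean of 76.2%. CpG-poor CpGs up to 1000 bp from a CpG-dense one thus had lower means than those farther away. The median coverage went from 64 reads in the nearest bin to 50 in the farthest.

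Adjacent members were alike. Over the 932036 pairs of adjacent members at most 100 bp apart, Pearson's r of the levels was 0.950 and Spearman's rho 0.866, and the mean absolute difference was 6.85 points. These pairs often share reads and are given with no p. Likeness fell with distance: r was 0.972 at 2 to 5 bp, 0.912 at 21 to 50 bp, 0.841 above 100 and up to 200 bp, 0.561 above 500 and up to 1000 bp, and 0.125 above 1000 and up to 10000 bp. Pairs within 100 bp where both CpGs were CpG-poor had r of 0.804 and a mean difference of 12.5 points. For intermediate pairs r was 0.948 with a mean difference of 7.75 points. CpG-dense pairs had r of 0.897 and a mean difference of 2.43 points, most of them being near 0%.

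Likeness also reached past shared reads, whose fragments are at most 220 bp long. For pairs of CpG-poor CpGs, adjacent or not, r was 0.68 at 200 to 400 bp, where some pairs can still share a fragment. Past the fragment limit r was 0.53 at 500 to 1000 bp, 0.31 at 1 to 2 kb and 0.18 at 2 to 4 kb. It was 0.05 at 100 to 200 kb and 0.02 at 1 to 2 Mb. The likeness of CpG-poor CpGs had thus mostly faded at a few kilobases.

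**Figure D4:**
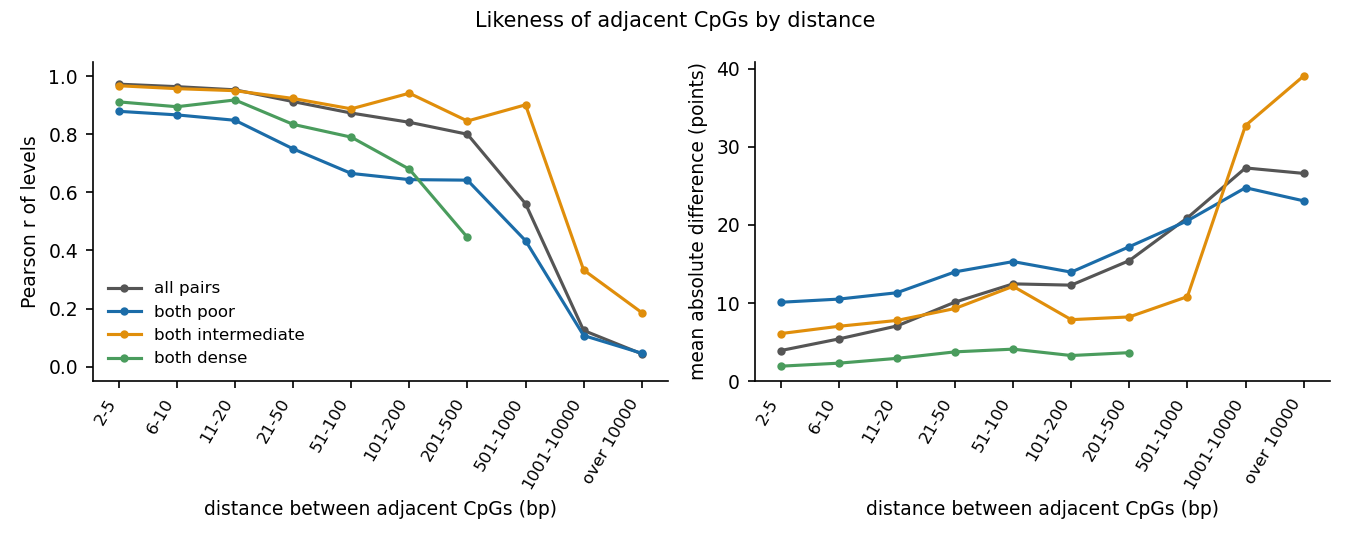
Pearson r (left) and mean absolute difference in points (right) of the levels of adjacent CpGs against the distance between them (bp), for all pairs and for pairs with both CpGs in the CpG-poor, intermediate or CpG-dense class. Over all pairs r falls from 0.972 at 2 to 5 bp to 0.561 above 500 and up to 1000 bp, and is near 0 beyond 10000 bp.

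States were kept to different degrees from a CpG to the next one within 100 bp. After an unmethylated CpG the next one was unmethylated in 97.0% of 510139 pairs. After a methylated CpG the next one was methylated in 79.6% and partly methylated in 19.9% of 276468 pairs. After a partly methylated CpG the next one was again partly methylated in 52.8% of 145429 pairs, methylated in 37.6% and unmethylated in 9.52%. Over all pairs a partly methylated CpG was thus followed by a methylated one more often than by an unmethylated one, but this differed by class. In CpG-dense pairs the next one was unmethylated in 34.8% and methylated in 9.82% of 12489 pairs, against 5.41% and 38.4% of 76716 CpG-poor pairs. The classes differ in makeup: 94.5% of all CpG-dense CpGs were unmethylated and 1.93% methylated, against 10.4% and 57.2% of all CpG-poor CpGs. Over all members 44.7% were unmethylated, 19.05% partly methylated and 36.3% methylated. Pairs with an unmethylated and a methylated CpG made up 0.324% of pairs.

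Runs were formed from consecutive members with gaps of at most 100 bp in the same state. Unmethylated CpGs lay in 62428 runs, and 88.0% of them were in runs of at least 5. Methylated CpGs lay in 232473 runs, with 26.8% in runs of at least 5, and partly methylated CpGs in 160800 runs, with 8.67%. CpGs that stood alone in their run made up 3.64% of unmethylated, 30.9% of methylated and 48.3% of partly methylated CpGs. Runs of 20 or more numbered 8655, 125 and 14 in the same order. Run length is bounded by where RRBS fragments lie, so it is a lower limit on the length of a domain. A run also ends where no member follows within 100 bp, so a CpG alone in its run may simply have no close neighbour. Runs of at least 5 had a median density of 13, 6 and 7 other CpGs within 100 bp, again in that order. The part of CpG spacing in the differences between states was not tested.

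The 3 longest unmethylated runs each overlapped a placed promoter. The longest held 187 CpGs at chr6:47997588-47998981 around the start of Zfp777, a zinc finger gene, and 0.58% of 8455 reads were methylated (95% Wilson interval 0.439% to 0.765%). The next held 171 CpGs at chr12:3806532-3808103 around the Dnmt3a promoter printed above, with 0.845% of 5799 reads. The third held 157 CpGs at chr8:125565338-125566846, around the starts of Ankrd11, a chromatin regulator, and of 2810013P06Rik, with 0.514% of 9541 reads. No CpG in the 3 runs was above 10%.

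The longest partly methylated runs were shorter. The first of a pair tied at 34 CpGs lay at chr10:12810597-12810993, where 40.3% of 2398 reads were methylated (38.3% to 42.3%), and its CpGs lay between 23.5% and 54.7%. It overlapped the starts of Plagl1 and of Hymai, a transcript of the same imprinted locus. The other run of 34 CpGs, at chr11:74980043-74980495, had 42.9% of 2073 reads, and a run of 24 CpGs at chr19:30614018-30614255 had 47.1% of 1245 reads. Neither overlapped a placed promoter. All 3 lay in dense sequence, with a median of 17, 18 and 20.5 other CpGs within 100 bp. A level between 0% and 100% can come from the same cells in 2 states per copy or from a mixture of cells, which these counts cannot tell apart.

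The longest methylated runs lay in sequence of intermediate density, with a median of 7 or 8 other CpGs. The longest held 52 CpGs at chr10:5263276-5264504, with 95.9% of 2703 reads. A further run of 44 CpGs at chr10:5264550-5265722, with 95.9% of 3099 reads, began 46 bp after it. The pair was parted by a single CpG, at position 5264543, with 0 of 48 reads methylated (up to 7.41%). The other held 46 CpGs at chr16:89963507-89964817, with 96.7% of 1482 reads. No placed promoter overlapped them.

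Single CpGs opposite to both neighbours within 100 bp were few. Among 151551 CpGs between methylated neighbours 504 (0.333%) were unmethylated, 136 of them with no methylated read, at a median of 39 reads. Among 458509 CpGs between unmethylated neighbours 82 (0.0179%) were methylated, at a median of 16 reads. Partial levels were more common, at 15.7% of CpGs between methylated neighbours and 1.28% of those between unmethylated ones. These were 23859 and 5849 CpGs, of which only 2714 and 889 lay from 40% to under 60%.

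Sharp borders were rare. With places holding a CpG above 603 reads left out, unmethylated and methylated CpGs met within 100 bp at 2984 places. They met at only 108 with 2 CpGs in a row on each side, at 29 with 3, at 4 with 4 and at none with 5. With 5 on each side, the rule chosen for naming such places, there was thus none to name. The 3 below come from the places with 3 CpGs on each side and were named after their values were seen. At chr19:16059249-16059264 none of 180 reads was methylated, and 2 bp farther, at chr19:16059266-16059280, 93.8% of 32 reads were. The level fell again to 1.25% of 160 reads at chr19:16059319-16059334. The short methylated stretch thus stands between runs of 17 and 39 unmethylated CpGs. Its 32 reads are summed over 3 close CpGs that can share reads, so the interval of 79.9% to 98.3% may be too narrow. On chromosome 2, 95.2% of 292 reads at chr2:27315103-27315134 faced 3.13% of 32 reads at chr2:27315211-27315229.

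Promoters could be described by gene where the spacing of their CpGs placed them. From the 32619 promoter sequences of RefSeq, 7556 were placed, and for 7552 of them (99.95%) the chromosome was the one RefSeq names, and the placing did not use that name. On autosomes 7195 had at least 5 members inside, from 6417 genes. Placing asks for at least 10 listed CpGs and so selects CpG-rich promoters that RRBS covered well. The level was not used in placing, but it was related to the number of CpGs, as given below. The shares that follow therefore describe CpG-rich promoters and not all promoters. Of these promoters 7078 (98.4%) were unmethylated by their mean, 100 (1.39%) partly methylated and 17 (0.236%) methylated, and the median was 0.708%. CpG-dense members inside them had a mean of 1.62%, and the CpG-dense members outside them 5.34%. Methylated promoters had fewer CpGs. Of promoters with 10 to 14 CpGs in 300 bases 1.49% were methylated, and of those with 30 or more 0.029%.

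Genes of meiosis and the germ line were listed from general knowledge, and this list held 5 of the 16 genes with a methylated promoter. Genes outside the list that act in germ cells, such as Btbd18 (below), are not in this count. The germline list and the gene lists below were chosen with earlier results of these data known. Their shares are therefore descriptions and not independent support. Of 61 germline genes on the list 9 were placed: 5 were methylated, 2 partly methylated and 2 unmethylated, against 0.249% methylated and 1.42% partly methylated over all 6417 genes. Besides Hormad1 and Sycp1 the methylated ones were Mael, a factor of transposon silencing in germ cells, with 86.8% over 12 CpGs, Slc25a31, a sperm ADP/ATP carrier, with 91.4% over 12 CpGs, and Tex101, a germ cell surface protein, with 94.9% over 10 CpGs. Ddx4, the germ cell RNA helicase also called Vasa, had 70.1% over 24 CpGs, and Hormad2 had 45.5% over 9 CpGs. The promoters of Smc1b, a meiotic cohesin subunit, and Tdrd5, a factor of piRNA biogenesis, were at 5.34% and 2.00%, so the group was not uniform.

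The methylated promoters belonged to 16 genes at 14 places. The further genes were Naa11 (88.8%) and 4930467D21Rik, which overlap, Btbd18 and Ctnnd1 (92.7%), which share their covered CpGs, Gm6566 (96.4%), Prss42 (97.5%), Jade1 (88.9%), Gm34222 (87.0%), Zglp1 (86.9%), Topaz1 (84.1%) and Gm52707 (83.1%). Btbd18 acts in male germ cells, while Ctnnd1 encodes the widely used junction protein p120-catenin, and the sequence placed is 1 of its start sites. The motif CACGTG, an E-box with a CpG at its centre that is the same on both strands, was in 7 of the 16 promoters (43.8%), against 699 of all 6417 (10.9%). The 7 were Hormad1, Mael, Prss42, Slc25a31, Sycp1, Topaz1 and Zglp1. A match of letters shows no binding. Only this motif and CCGG, which all 6417 held, were counted, and the choice followed no stated rule. The difference in share is therefore a description only.

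Of 32 imprinted genes 6 were placed, and 3 of the 6 were partly methylated, against 1.42% (91) of all 6417 placed genes. Plagl1 and Igf2r were given above, and Mcts2, which is expressed from the paternal copy, had 55.1% over 10 CpGs, between 43.7% and 66.7%. The placed promoters of Gnas (3.62%), Zdbf2 (3.26%) and Grb10 (2.33%) were unmethylated. These loci are known to have other start sites as well. Among 6 placed Hox promoters, genes of body axis patterning, 2 were partly methylated, against the same 1.42%. Hoxa6 had 26.7% and Hoxd9 27.7%, Hoxd10 had 13.2%, and Hoxa13, Hoxd1 and Hoxd11 were between 1.16% and 1.57%.

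The placed promoters of the other lists were all unmethylated, as were 98.3% of all 6417 placed genes, so these counts are near the share over all genes. All 11 placed housekeeping promoters were between 0.208% and 0.718%. All 16 placed promoters of the DNA methylation and chromatin machinery were at or under 2.87%, among them Dnmt1 with 0.484%, Dnmt3b with 1.28%, Uhrf1, which guides Dnmt1, with 0.546%, and Tet2 and Tet3, which oxidise methylcytosine, with 1.01% and 1.03%. The 5 placed genes on the pluripotency list were Klf4 and Klf2, Sox2, Fgf4 and Tfcp2l1, and they were between 0% and 2.57%. The 5 placed fibroblast genes, Col5a1, Itgb1, Nt5e, Snai1 and Tgfb1, were between 0.83% and 2.44%. The placed genes of other lineages, Kdr of endothelium, Neurog1 of neurons and Pax6 of eye and brain, were between 0.682% and 3.72%. Both lists were thus low, so promoter levels give no check of the labelled cell type, and 5 of 40 fibroblast genes and 3 of 40 others could be read.

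Chromosome means ranged over 12.2 points, from 37.3% on chromosome 11 and 37.5% on chromosome 19 to 49% on chromosome 6 and 49.5% on chromosome 3, with a median of 45.7%. The share of CpG-dense CpGs ranged from 28.4% (chromosome 14) to 36.4% (chromosome 19), and was 35.6% on chromosome 11. Over the 19 chromosomes this share and the mean level had a Pearson r of -0.95, as a description, since the share enters the mean. When each chromosome was given the density makeup of all autosomes, the means ranged from 39.9% (chromosome 11) to 47.8% (chromosome 3), a range of 7.92 points. The same chromosomes thus stood at the ends with makeup held equal. The share of CpG-dense CpGs and these standardised means still had a Pearson r of -0.88, also as a description. With reads pooled the range was 21.5 points, because chromosome 17 then had 28.8%, against 43% with equal weight per CpG. On that chromosome 291 CpGs at chr17:39980047-39985653 had a median of 5098 reads each, held 35.9% of its reads and had 5.23% of them methylated. Pooled without CpGs above 603 reads, chromosome 17 had 42.5%, and the autosomes ranged from 36.9% (chromosome 19) to 50.2% (chromosome 3).

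The intermediate class varied most between chromosomes. Its mean went from 37.5% on chromosome 11 to 58.3% on chromosome 3. CpG-poor CpGs had means from 68.0% (chromosome 19) to 74.5% (chromosome 16), and CpG-dense CpGs from 3.16% (chromosome 9) to 6.44% (chromosome 7). Recurring patterns made up 12.9% of intermediate CpGs on chromosome 11 and 38.4% on chromosome 3. Without them the intermediate means ran from 30.1% (chromosome 11) to 40.6% (chromosome 10), a range of 10.5 points in place of 20.7. The level inside recurring patterns was between 87.2% and 87.9% on every autosome.

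**Figure D5:**
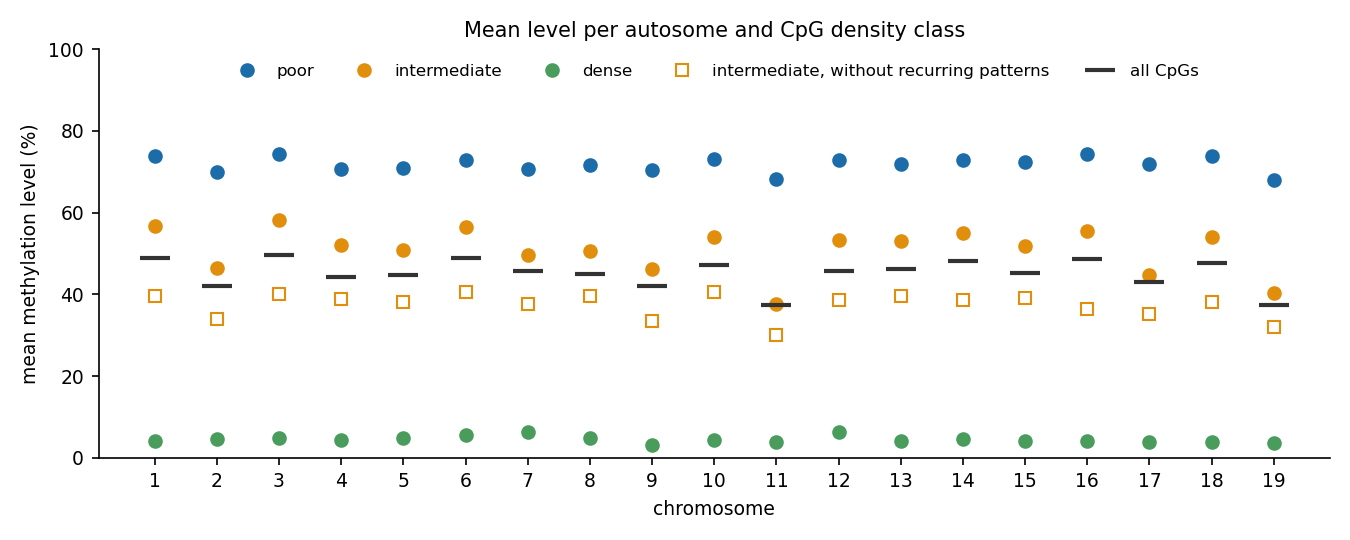
Mean methylation level (vertical axis, percent) on each autosome (horizontal axis) for CpG-poor, intermediate and CpG-dense CpGs (filled points), for intermediate CpGs without recurring spacing patterns (open squares) and for all CpGs (bars). Intermediate means run from 37.5% on chromosome 11 to 58.3% on chromosome 3, and the open squares lie between 30.1% and 40.6%.

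Chromosome 1 stood apart in coverage. Its members had a median of 63 reads, against 50 to 52 on each of the other 18 autosomes. The surplus was larger at unmethylated CpGs, with a median of 74 reads against 50 to 55 elsewhere, than at methylated CpGs, with 57 against 51 to 53. Its mean level was 48.8% with equal weight per CpG and 44.6% with reads pooled. Without chromosome 1 the autosomal mean was 44.7%. The part of this surplus in the level of chromosome 1 was not tested.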

How the data were processed

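The authors deposited for the control library a table of CpG positions with methylated and unmethylated read counts. Per the submitters' processing notes the build is mm9, and the labels' protocols name MspI and fragments of 40 to 220 bp. Which aligner and caller made it is not given in the sources used here. The table has no header: in CpG-dense sequence 65.3% of listed CpGs have a first count of 0, so the first count was read as methylated. Levels, densities, distances and runs were computed with Python 3.11.15, numpy 2.4.6, pandas 2.3.3 and scipy 1.17.1, and tested on simulated data. Density and distance used all listed CpGs. Named runs are the 3 longest of each state, without CpGs above the 99.9th percentile of coverage (603 reads). A promoter was placed where a seed of 6 CpGs and at least 10 listed CpGs fitted its CpG spacing, with a lead of 3 over any other place. The 4 placed on another chromosome than RefSeq names were dropped, and 5 members were the minimum. The members, gene lists and density limits were chosen with earlier results of these data known. Alternatives were other coverage minimums, windows, limits and weights. No exon or intron was assigned.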

Additional observations from a re-analysis of the deposited data

How the results depend on the processing

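With 1 library no spread between replicates exists, so the results below are compared with counting error alone. Counting error is so small (0.00827 points for the mean) that 36 of the 42 alternative values of the 6 main results moved by more. None changed sign, but the autosomal mean, the range of chromosome means and the partly methylated share cannot do so. For these results the unchanged sign shows nothing. In order, the autosomal mean, the difference between CpG-poor and CpG-dense means, the difference between CpGs over 1000 bp and 2 to 5 bp from the next, the range of chromosome means, r of adjacent CpGs and the partly methylated share were 45%, 67.2 points, 50.01 points, 12.2 points, 0.950 and 19.05%. A minimum of 5 reads gave 45.1%, 66.4, 49.6, 11.9, 0.938 and 19.9%. A minimum of 20 reads gave 44.5%, 67.6, 50.8, 12.8, 0.958 and 18.2%. A minimum of 50 reads gave 43.7%, 67.1, 51.3, 13.6, 0.964 and 17.1%. Leaving out recurring patterns, chosen after seeing the data, gave 40.9%, 67.8, 55.9, 8.76, 0.945 and 19.4%, and chromosomes 6 and 19 then had the highest and lowest means. Pooled reads gave 43.5%, 66.0, 49.6 and a chromosome range of 21.5 points, since chromosome 17 then had the lowest level, 28.8%, against 43% with equal weights and 42.5% pooled without CpGs above 603 reads, chosen after seeing the data. The 1247 CpGs above 603 reads hold 4.64% of reads, and without them all 6 values stayed within counting error. The density difference was 64.3 points with a window of 50 bp, 58.3 with 200 bp and 65.2 when density counted only CpGs with at least 10 reads. The distance difference was 48.9 points with the next CpG among those with at least 10 reads, and 49.5 with the nearer of both neighbours. The partly methylated share was 37.3% with limits of 10% and 90%, and 10.2% with 30% and 70%. Spearman's rho was 0.866. With at least 15 listed CpGs, chosen after seeing the data, 0.127% of promoters were methylated and 0.835% partly methylated. No paired analysis was possible because the series has 1 library in each group.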

Other observations

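The X chromosome was outside the description above. Its 53512 CpGs with at least 10 reads had a mean level of 66.1%. X-linked CpG-dense CpGs, 7422 of them, had a mean of 15.5%, against 4.53% on autosomes, and 83.4% of them were under 20%. Intermediate X-linked CpGs had a mean of 71.5%, against 50.8% on autosomes, and CpG-poor ones 76.8%, against 71.7%.

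Autosomal CpGs with fewer than 10 reads numbered 436162, with a median of 2 reads and a mean level of 39.8%. The CpG-dense ones had a mean of 12.8% and the CpG-poor ones 55.9%, so the poorly covered CpGs showed a smaller difference by density than the members.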
